A study of Rattus norvegicus with 2 samples.

Results

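A set of 29 genes that mark brain regions around the hypothalamus were followed in hypothalamic RNA from both sexes of the spontaneously hypertensive rat (SHR), as a gauge of what the dissected block held in each sex. The genes were taken from a list: 16 mark cortex and hippocampus, 6 striatum and 7 thalamus. Array probes carrying a RefSeq accession of the gene were found for 24 of the 29, out of 39500 genes and unnamed transcripts on the array, 16579 of them with a symbol. Cux1, Emx1, Mef2c, Meis2 and Tcf7l2 had no matched probe and are not analysed here. SHR rats are inbred and become hypertensive as they age. The groups were 1 pool of male and 1 pool of female SHR, each made of 100 ng of total RNA from each of 5 rats aged 9 weeks that had fed freely, and each pool was hybridised to 1 single-colour (Cy3) array. The rats were killed under ether and decapitated, and 1 operator cut all blocks under a microscope. With 1 pool per sex there are no replicates and no test, so each difference describes these pools, and the number of arrays limits its precision.

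The forebrain is parcelled during development by transcription factors, many of which stay on in adult neurons and so serve as addresses. Excitatory neurons of the cortex and hippocampus keep factors of the NeuroD, EMX, CUX and T-box families, together with synaptic proteins of dendritic spines. Medium spiny neurons of the striatum carry the dopamine signalling protein DARPP-32 and the adenosine A2a receptor, and FOXP factors. Thalamic relay neurons carry Gbx2, Lef1 and Prkcd. These regions border the hypothalamus, and a block cut by hand can take some of each. Several of the markers are not exclusive to their region: Calb2, the calretinin gene, and Foxp1 are also transcribed in hypothalamic neurons.

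A list of 24 hypothalamic genes was read first. Of these 23 had a probe, 19 were well above background in both pools and 2 in 1 pool. Over all 16579 genes with a symbol, 12199 were well above background in both pools. Passing the background test thus does not show the origin of the tissue. The peptide precursor genes Avp, Oxt, Pomc, Agrp, Hcrt, Pmch, Trh and Crh were all measured in both pools. Their male minus female log2 differences ran from -0.40 for Crh to 0.24 for Pomc. The only spot of Crh was in a patch, as defined below. The regulators Nr5a1 and Rax were not well above background in either pool. Across the arrays, 71.6% of 58717 male spots and 73.0% of the female ones passed the background test, and the 75th percentile of signal was 2203 and 2254 units.

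Before the values, the promoters of the pair of markers furthest apart between the pools in each direction are shown, Cux2 and Neurod6. NeuroD proteins bind DNA at E-boxes, CANNTG, a motif that reads the same on both strands; every E-box is in capitals. The windows run from 250 bases before to 50 bases after the transcription start (RefSeq, GRCr8). Cux2 lies on the plus strand at chr12:40179032-40179331 and Neurod6 on the minus strand at chr4:86180106-86180405.
Cux2: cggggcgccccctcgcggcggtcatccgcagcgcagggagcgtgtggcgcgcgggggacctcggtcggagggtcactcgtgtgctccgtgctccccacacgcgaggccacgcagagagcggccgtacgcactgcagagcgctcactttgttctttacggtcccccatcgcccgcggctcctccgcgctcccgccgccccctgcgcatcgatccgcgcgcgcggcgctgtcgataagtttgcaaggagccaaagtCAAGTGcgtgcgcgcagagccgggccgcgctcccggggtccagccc
Neurod6: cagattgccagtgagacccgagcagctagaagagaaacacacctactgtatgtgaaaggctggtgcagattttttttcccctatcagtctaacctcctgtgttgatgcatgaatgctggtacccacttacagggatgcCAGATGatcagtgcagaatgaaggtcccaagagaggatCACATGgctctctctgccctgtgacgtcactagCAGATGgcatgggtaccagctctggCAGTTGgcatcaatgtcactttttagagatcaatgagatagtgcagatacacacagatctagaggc

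The Cux2 window held 1 E-box, 46 CG dinucleotides and 73.0% G and C. That of Neurod6 held 4 E-boxes, 2 CG dinucleotides and 48.3% G and C. Over all 33465 promoter windows of this length the median was 1 E-box, 7 CG dinucleotides and 51.7% G and C, and 72.1% held at least 1 E-box. Windows were found for 19 of the 29 markers, and 14 of the 19 held an E-box. These matches describe the letters only.

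The region markers were about as close between the pools as all genes and transcripts measured. Of the 24 with a probe, 22 were well above background in both pools and 2, Tbr1 and Gpr6, in neither. Each difference is the male log2 signal minus the female one, on the gene's brightest probe, with each array's 75th percentile set to 0. Over the 22 markers the median difference was -0.07, with 9 higher and 13 lower in the male pool. Over all 24134 genes and transcripts well above background in both pools the median was -0.02, and 55.0% were lower in the male pool. Within 0.2 of zero lay 18 of the 22 markers, against 80.3% of all. Only Cux2 among the 22 was at least 2-fold apart, where 4.21% of the 26110 genes and transcripts measured in at least 1 pool were, 2.56% being higher in the male pool. At 1.5-fold the count was again 1, against 6.87% of all. The summed signal of the 24 markers was 24.5 times the 75th percentile in the male pool against 25.1 times in the female one. Most of each sum came from Prox1, Calb2, Prkcd and Foxp1. Levels are not comparable between probes, so the sums say little about the dim markers. In bulk RNA of this kind, fewer cells of a type and less RNA per cell cannot be told apart.

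**Figure D1:**
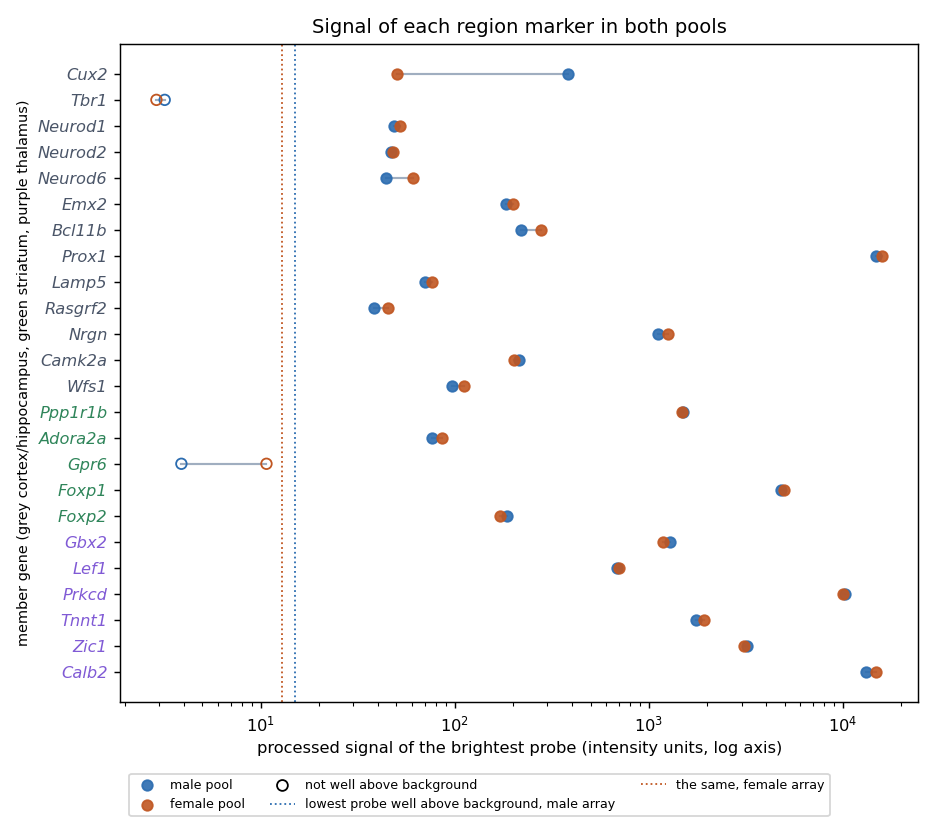
Processed signal of the brightest probe of each of the 24 region markers (intensity units, log axis) in the male pool (blue) and the female pool (orange); dotted lines mark the lowest probe well above background on each array, at 15.1 and 12.9 units. The pools nearly coincide for most markers, Cux2 is far higher in the male pool, and Tbr1 and Gpr6 lie left of the lines; levels are not comparable between probes.

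Errors are given in 2 ways, neither of which covers animals or arrays. The technical SD comes from repeat spots of 1 probe within an array, and for a difference on 1 spot it ran from 0.072 above the 75th percentile to 0.25 at log2 signals of -6 to -4 and 0.43 below that. The scanner software's own error gave an SD of 0.20 to 0.26 per spot for every marker probe well above background, since it assigns about the same relative error to all but dim spots. By the second measure only the Cux2 difference exceeded 2 SD.

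Cux2, a homeobox gene of upper-layer cortical neurons, had 381 units in the male pool against 50.3 in the female one. The difference was 2.96, or 7.75-fold, with a technical SD of 0.25 and a software SD of 0.22. The array carried 1 probe for this gene, on 1 spot. That spot lay among spots that were mostly brighter on the male array. Among its 18 nearest measured neighbours, all spots of other probes, 12 were 2-fold or more higher there and 0 were 2-fold or more lower, and the 18 ranged from -0.13 to 5.64 with a median of 2.54. On a common scale the Cux2 spot was 336 units brighter on the male array, and the 18 neighbours were brighter by a median of 102 units. The local background beside the Cux2 spot was 30 units on both arrays. A spot is called in a patch here if 2 or more of those 18 neighbours differ 2-fold or more in 1 direction, which held for 12.9% of measured spots and for 8 of the 59 spots of the region markers. Without spots in patches Cux2 has no value and no marker was 2-fold apart. The part of the patch in the Cux2 difference was not tested.

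**Figure D2:**
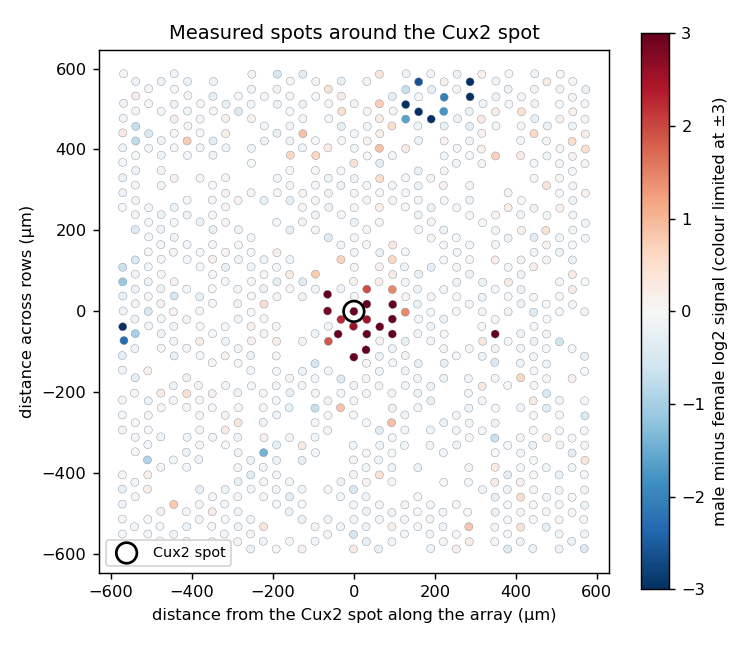
Position of measured spots around the Cux2 spot (circled) on the male array, in µm from that spot, coloured by the male minus female log2 difference of each spot (red, higher in the male pool). Red spots gather around Cux2, 12 of its 18 nearest being 2-fold or more up in the male pool, while most spots farther away are pale.

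Among the other factors of cortical and hippocampal neurons, all were within 1.5-fold. Tbr1, a T-box gene of deep-layer neurons, had 3.20 units in the male pool against 2.90 in the female one, neither well above background. Neurod6, a basic helix-loop-helix gene of excitatory neurons, had 44.3 units in the male pool against 60.9 in the female one. Its difference of -0.43 was the lowest of the 22 markers and 1.74 technical SD, on 1 spot outside patches, where 1 of 18 neighbours was 2-fold lower in the male pool. The related gene Neurod2 had 47.1 and 47.9 units, a difference of 0.01 that turned negative under median centring and quantile normalization. A second Neurod2 probe had 3.1 and 4.3 units, well above background on neither array. Neurod1, which acts in granule neurons of the hippocampus, had 48.7 and 52.4 units, a difference of -0.07 that turned positive with normexp background correction. Its only spot was in a patch, where 4 of 18 neighbours were 2-fold or more lower in the male pool, so it too has no value without patches. These 3 NeuroD genes thus showed no difference of 2 technical SD, all on dim spots. Emx2, a homeobox gene that patterns the cortex and is on in its progenitors, had 184 and 199 units, a difference of -0.09. Bcl11b, a zinc finger gene of deep-layer projection neurons and of striatal neurons, had 220 units in the male pool against 277 in the female one, a difference of -0.30 or 2.31 technical SD. Its second probe went the other way.

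Prox1, a homeobox gene of dentate granule neurons that thalamic neurons also carry, was measured on 10 spots. Divided by each array's 75th percentile, they lay between 6.51 and 6.85 for males and between 6.84 and 7.28 for females, so the ranges overlapped slightly. The difference was -0.08, 3.29 technical SD of the mean.

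Markers of cortical and hippocampal synapses and signalling were also close. Nrgn, which encodes the calmodulin-binding spine protein neurogranin, was measured on 10 spots, from 0.483 to 0.533 times the 75th percentile in males and from 0.530 to 0.577 times in females, again with a slight overlap. Spot by spot, every value was lower in the male pool, with a mean difference of -0.14 and a spread between spots of 0.042 (SD). Camk2a, the alpha subunit of the calcium/calmodulin-dependent kinase of spines, had 215 and 203 units, a difference of 0.12. These spine genes thus lay on opposite sides of zero. Wfs1, a membrane protein gene of the endoplasmic reticulum that marks hippocampal field CA1, had 96.2 and 112 units, a difference of -0.18. Rasgrf2, an exchange factor gene of upper cortical layers, had 38.5 and 45.4 units, a difference of -0.20. Lamp5, which marks a class of cortical interneurons, had 69.9 and 75.9 units, a difference of -0.08 that turned positive with normexp. The last 3 differences were each under 1 technical SD. Of the 12 cortical and hippocampal markers well above background, 9 had the lower value in the male pool and 3 the higher. Their median was -0.09, and also -0.09 over 11 when Cux2 was left out, a choice made after its value was seen. With normexp the split was 5 higher and 7 lower.

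The striatal markers showed no common direction. Ppp1r1b, which encodes DARPP-32, had 1497 units in the male pool against 1477 in the female one over 2 spots, a difference of 0.05 with spots at 0.02 and 0.09. Adora2a, the adenosine A2a receptor gene of the indirect pathway, had 75.8 and 86.3 units, a difference of -0.15 or 0.62 technical SD. Gpr6, an orphan receptor gene of the same neurons, had 3.90 and 10.7 units, neither well above background, so it has no difference here. Foxp1 and Foxp2 encode forkhead factors. Foxp1 had 4806 and 4946 units, a difference of -0.01. Foxp2 had 186 and 172 units, a difference of 0.15. Of the 4 measured in both pools 2 were higher and 2 lower. Their median of 0.02 turned negative under median centring, with probes averaged and with dim probes kept.

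The 6 thalamic markers with a probe were measured in both pools. Prkcd, a protein kinase C gene of thalamic relay neurons, had 10201 units in the male pool against 9956 in the female one, a difference of 0.07. Gbx2, the homeobox gene that specifies thalamic neurons, had 1287 and 1187 units, a difference of 0.15 or 1.73 technical SD. Lef1, a transcription factor gene of the Wnt pathway, had 687 and 702 units, a difference of 0.00 whose sign changed with the scaling and with normexp. Tnnt1, a troponin T gene used as a thalamic marker, had 1740 and 1916 units, a difference of -0.11. Zic1, a zinc finger gene of the medial thalamus and septum, had 3213 and 3087 units, a difference of 0.09. Calb2 was measured on 9 spots, from 5.77 to 6.08 times the 75th percentile in males and from 6.23 to 6.86 times in females, with no overlap. Its difference was -0.14, with every spot lower in the male pool, and its second probe, in a patch, gave -0.11. Of the 6, 4 had the higher value in the male pool and 2 the lower, the median being 0.04. The split was 3 and 3 under median centring, quantile normalization and normexp.

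**Figure D3:**
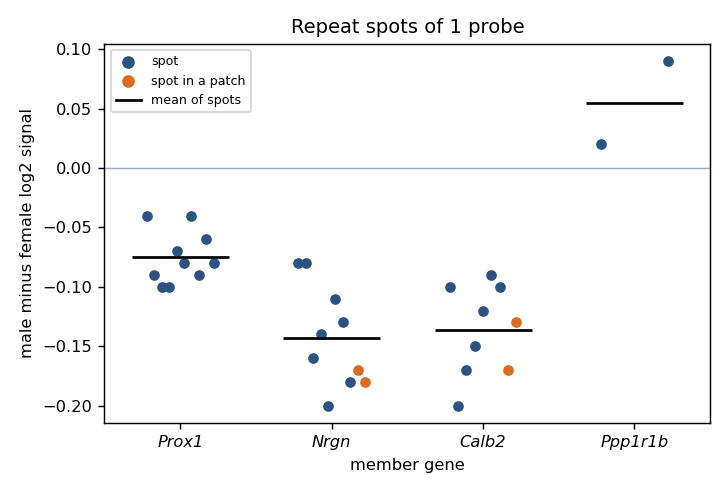
Male minus female log2 difference of each spot for the 4 markers whose brightest probe is on more than 1 spot; points are spots, orange where the spot is in a patch, and lines are means. All spots of Prox1, Nrgn and Calb2 lie below zero, between -0.04 and -0.20, and both Ppp1r1b spots lie above.

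The differences with the lowest technical SD were those of markers with repeat spots. Prox1, Nrgn and Calb2 were lower in the male pool on all spots used by 3.29, 5.25 and 5.62 technical SD; 2 spots each of Nrgn and Calb2 were in patches. Each was under 1 SD by the software's error, which does not shrink with repeat spots here. The technical SD leaves out the scaling between arrays. Under median centring the differences of Prox1, Nrgn and Calb2 were -0.11, -0.17 and -0.17, each moved by more than its technical SD. In size they lay inside the range from -0.28 to 0.34 that holds all but the outer 5% of all genes on each side.

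Where a marker had 2 probes measured in both pools, the probes often differed in sign. This held for 4 of 7 markers (57.1%), against 37.5% of 3505 genes with such pairs. Bcl11b was at -0.30 and, on its second probe, at 0.32; the spot of that second probe was in a patch where 4 of 18 neighbours were 2-fold or more brighter on the male array. Foxp2 was at 0.15 and -0.26, Gbx2 at 0.15 and -0.22, and Zic1 at 0.09 and -0.20. For Camk2a, Prkcd and Calb2 both probes had 1 sign. The median gap between the probes of a marker was 0.29, against 0.091 over all pairs, and in Bcl11b, Foxp2, Gbx2 and Zic1 the gap was larger than the difference on the brightest probe. Both measures varied with the brightness of the dimmer probe. At log2 signals of -6 to -4 the gap over all pairs was 0.14, with 40.2% opposite in sign. At -4 to -2 it was 0.089, with 38.2%. Every marker pair but that of Calb2 had its dimmer probe in these bands. With the mean over probes the thalamic median turned to -0.04.

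**Figure D4:**
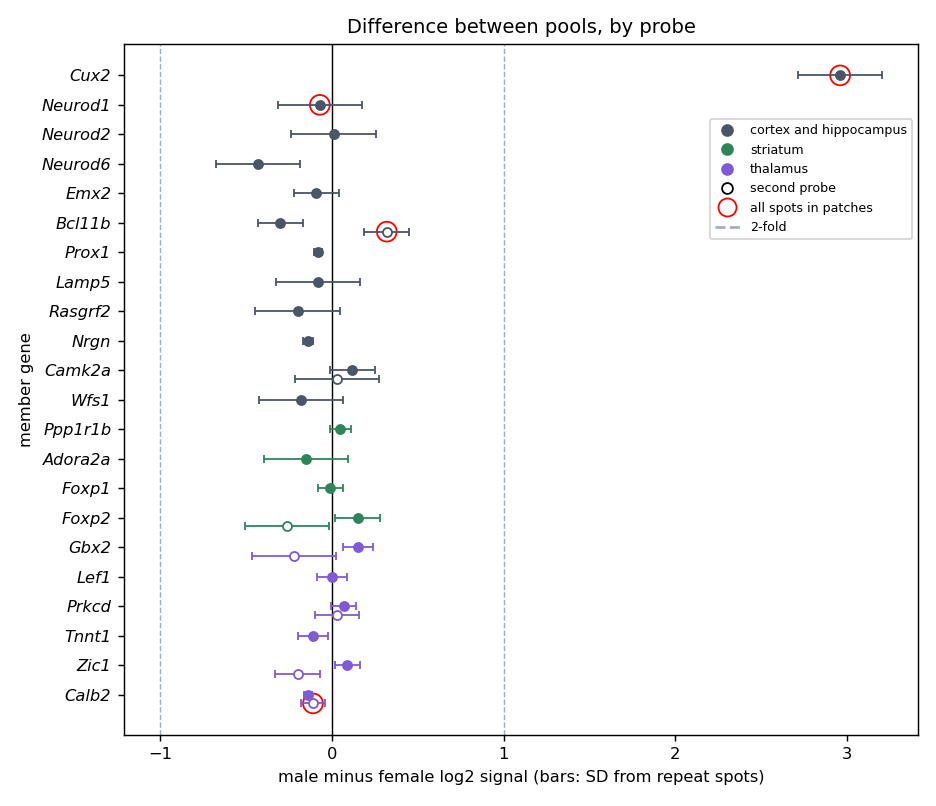
Male minus female log2 difference of every probe of the 22 markers well above background; filled points are the brightest probe, open points the second, bars the technical SD of the probe's mean, and red rings mark probes with all spots in patches. Cux2, at 2.96, is the only point outside the dashed 2-fold lines, and the second probes of Bcl11b, Foxp2, Gbx2 and Zic1 fall on the other side of zero.

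Further markers of the same regions, from lists other than the 29, were set beside them. Of 20 other cortical and hippocampal genes 17 were well above background in both pools, 9 with the higher value in the male pool and 8 with the lower. Their median was 0.00, negative under median centring, quantile normalization and normexp, and median centring gave 6 higher and 11 lower. Zbtb18, a zinc finger gene, was at 0.48, 1 spot with a technical SD of 0.43. Slc17a7, the vesicular glutamate transporter gene of cortical excitatory neurons, was chosen after its values were seen. It had 14.4 units in the male pool and 13.9 in that of females, and passed the background test in the latter alone. Of 24 other striatal and amygdalar genes 20 were well above background, 16 with the lower value in the male pool and 4 with the higher, the median being -0.09. Isl1, a factor of striatal and hypothalamic neurons, was at -0.45. The striatal markers of the 29 did not share that split, with 2 of 4 higher; the difference between the lists was not tested. Of 18 other genes of thalamus and habenula 11 were well above background, 6 higher and 5 lower, the median being 0.04 (-0.010 with dim probes kept). Among them Chrna3, a nicotinic receptor gene of the habenula, was at 0.42, and Shox2, a thalamic homeobox gene, at 0.27.

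Lists of other cell types, chosen with earlier results of these data known, were read the same way. Over all genes and transcripts measured in both pools, 10850 of 24134 had the higher value in the male pool. Among those measured in at least 1 pool, 2.56% were at least 2-fold higher there. All 11 meningeal fibroblast genes measured in both pools had the higher value in the male pool, the median being 1.21. The summed signal of the 12 on the list was 4.80 times the 75th percentile against 1.94 times. The genes at least 2-fold apart were Col1a1, Col1a2, Col3a1, Igf2, Slc22a6, Slc6a13 and Ogn, each up to 1.82 higher in the male pool, and Slc47a1, higher there by at least 2.72-fold. The only spots of Ogn and Slc6a13 and 1 of the 9 of Col3a1 were in patches. All 5 red blood cell genes were higher too, the median being 0.84 and the sums 23.6 against 13.7. Of 10 pituitary genes 6 were measured in both pools, with a median of 0.22, while Gh1 and Fshb were not well above background in either. The summed signal of the 9 with a probe was 1.48 times the 75th percentile against 0.745 times. Most of that gap came from Cga, at 1870 units in the male pool against 469 in the female one. Tshb was at 3.64 and Cga at 2.03, and Prl was lower in the male pool by at least 7.91-fold; the spots of Cga and Prl were in patches. The 9 genes of choroid plexus and ependyma had a median of 0.24 over 6 measured in both pools, and Kcnj13 was higher in the male pool by at least 3.82-fold. The lists of oligodendrocytes, astrocytes with tanycytes, microglia and endothelium had medians of 0.10 to 0.13, and among microglial genes Cd74 was at 1.58.

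The medians of the general neuronal and the hypothalamic lists lay below zero, as did that of all genes, at -0.02. Those of both thalamic lists, at 0.04, did not. Of 12 general neuronal genes 10 had the lower value in the male pool and 2 the higher, and their median was -0.05. Among the hypothalamic genes measured in both pools 13 were lower and 6 higher, and their median was -0.15. Kiss1, the kisspeptin gene, was at -1.22 on 1 dim spot, with 23.6 units in the male pool against 56.1 in the female one. The technical SD of that difference was 0.25. Six6, a homeobox gene, was lower in the male pool by at least 20.4-fold, its only spot being in a patch. The region markers' median of -0.07 thus lay between those of the neuronal and the hypothalamic lists under the main processing. With normexp the region markers' median was -0.013, and with a mean log2 signal above -4 only it was -0.002. The neuronal and hypothalamic medians were not computed under those settings. The part of these cell types in the region markers' values was not tested.

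**Figure D5:**
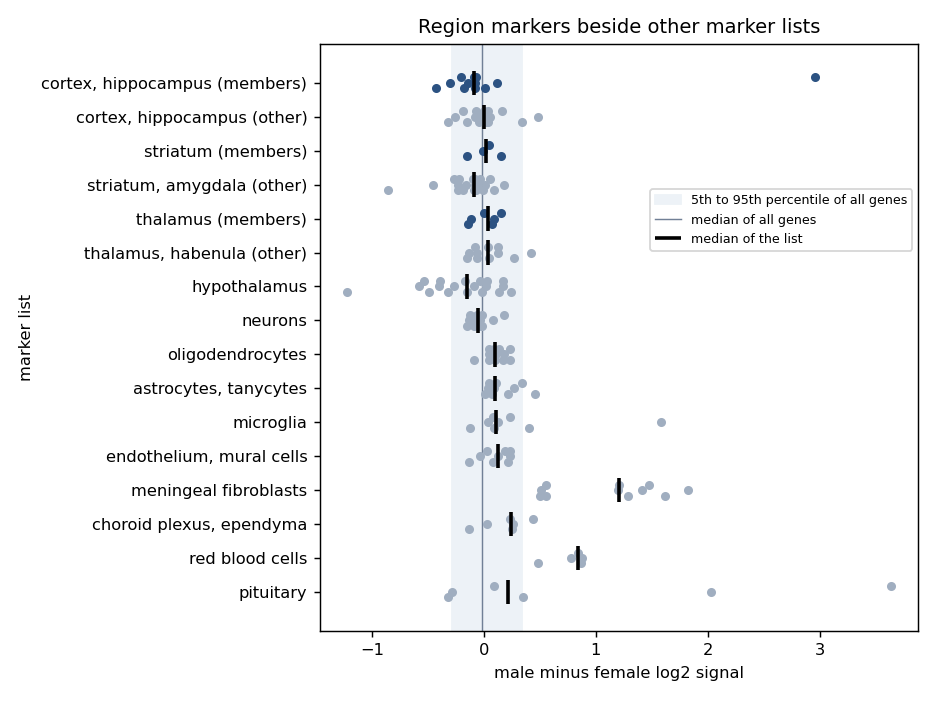
Male minus female log2 difference of each gene well above background in both pools, by marker list (dark points, the region markers; grey points, other lists); black bars are list medians and the shaded band holds the 5th to 95th percentile of all genes, -0.28 to 0.34. The medians of the region lists lie between -0.09 and 0.04, and those of meningeal fibroblasts and red blood cells at 1.21 and 0.84.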

How the data were processed

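Per the file headers, each deposited array file holds the processed spot intensity of Feature Extraction 11.5.1.1 (protocol GE1_1105_Oct12, design build rn4), with background subtracted and no scaling between arrays; the submitters' processing notes name version 9.1. The deposited value table holds intensity values; all 42947 per array equalled, within 1%, the processed signal over the array's 75th percentile times 100 (medians 28.0 and 27.8).

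Outlier spots on either array (664) were left out, no spot was saturated, and the 75th percentile of each array was subtracted on the log2 scale, and spots were averaged per probe. Symbols came from RefSeq accessions (GRCr8 table) for 46.3% of 45591 probes. A probe was well above background when over 50% of its spots were; a side below it was raised to the array's lowest such probe and written "at least". A gene's brightest probe over both arrays stood for it. The members and lists were chosen with earlier results of these data known. All members were named, and from other lists the genes at least 2-fold apart, or else the 2 furthest apart; some that this rule takes are not reported here. Normexp (limma 3.58.1, offset 50) used spot medians, since the files used here give no spot means. The computation (Python 3.11.15, pandas 2.3.3, scipy 1.17.1) was tested on simulated data. Alternatives changed background correction, scaling, probe choice, dim-probe and outlier filters, patches, and the source of values.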

Additional observations from a re-analysis of the deposited data

How the results depend on the processing

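Under 9 alternatives the median over all region markers, -0.074, ranged from -0.105 (median centring) to -0.002 (mean log2 signal above -4 only), and that of the cortical group, -0.086, from -0.122 to -0.053. The medians of the striatal group (-0.032 to 0.053), the thalamic group (0.036, and -0.044 with the mean over probes), the other cortical list (-0.039 to 0.018) and the other thalamic list (-0.010 to 0.038) changed sign, while that of the other striatal list stayed between -0.117 and -0.083. The technical SD of 1 spot is as large as these medians or larger, so it is no measure of their stability. The count of markers at least 2-fold apart was 1, and became 2 with dim probes at their measured value, which adds Gpr6 at -1.43 (-0.14 with normexp), and 0 both without spots in patches and with a mean log2 signal above -4, since both leave out Cux2. Cux2 was at 1.99 with normexp and between 2.92 and 2.96 in the other settings that measured it. No paired analysis was possible because each sex had 1 pool, and for the same reason no replicate could be left out. Low signal limits Cux2, the NeuroD genes and 4 other markers in the band of log2 signal from -6 to -4, where 6.07% of genes were 2-fold apart, against 0.065% above the 75th percentile.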
